A study of Bos taurus with 6 samples.

Results

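The genes described here are EPCAM, KRT19, KRT7, ST14, UPK1B, UPK3BL1, ITLN2 and SCGB1C1, which are 8 of the 14179 gene symbols in the count table. They were chosen by name for their high rumen counts in these same libraries. Their levels are therefore given as a description, without a test, and tests are kept for other genes. Poly(A) RNA was sequenced from forebrain, liver and rumen of bovine fetuses, with 2 libraries per tissue. All 6 libraries were labelled male and wild type (WT), from Holstein fetuses of 90 days, and the labels give no treatment for the tissues. Age was estimated from a crown-rump length of 13 to 16 cm in fetuses taken at a slaughterhouse. The labels name 2 male fetuses without linking them to libraries, so each p-value measures only the spread between these libraries.

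Epithelial cells line surfaces and glands. They are held together by adhesion molecules and junctions, carry pairs of type I and type II keratins, and bear proteases at the cell surface. Single-layered (simple) epithelia typically carry keratins 7, 8, 18 and 19. The rumen is the first and largest stomach compartment of cattle and is lined by a stratified squamous epithelium, whose cells carry other keratins such as KRT5, KRT15 and KRT4. Uroplakins are membrane proteins best known from the plaques on the surface of the bladder lining. Intelectins are secreted or surface lectins that bind sugars, and secretoglobins are small secreted proteins of mucosal surfaces. Mesothelium is the flat layer on the outside of abdominal organs.

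The libraries held between 10271024 and 18528958 counts. CPM below are counts scaled to the library total after TMM scaling, a correction for libraries dominated by a few genes. The level of 3 counts over both libraries was 0.115 CPM for forebrain, 0.103 for liver and 0.116 for rumen, and it served as the floor where a tissue had no counts. The tissue labels were checked against defining markers. Summed CPM of 5 forebrain genes was 1021 and 913 in forebrain and at most 54.0 elsewhere. That of 6 hepatocyte genes was 213781 and 180150 in liver and at most 132 elsewhere. That of 5 smooth muscle and foregut mesenchyme genes was 4342 and 4584 in rumen and at most 88.2 elsewhere. The liver libraries differed more from each other than the other pairs did: the SD of the log2 ratio between libraries was 0.897 in liver, 0.345 in forebrain and 0.343 in rumen over 2565 well-counted genes (mean count 1000 or more).

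In all 8 genes both rumen libraries lay above all 4 forebrain and liver libraries. The genes were chosen for this, and 1930 of 11478 tested genes, 16.8%, had that order too. All 8 passed the filter on low counts, but UPK3BL1, ITLN2 and SCGB1C1 passed it through the rumen alone. The 8 genes fell into 2 kinds. EPCAM, KRT19, KRT7, ST14 and UPK1B had counts in every library. UPK3BL1, ITLN2 and SCGB1C1 had no count in any forebrain or liver library. These are bulk tissues, so fewer cells of a type and less RNA per cell cannot be told apart.

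**Figure D1:**
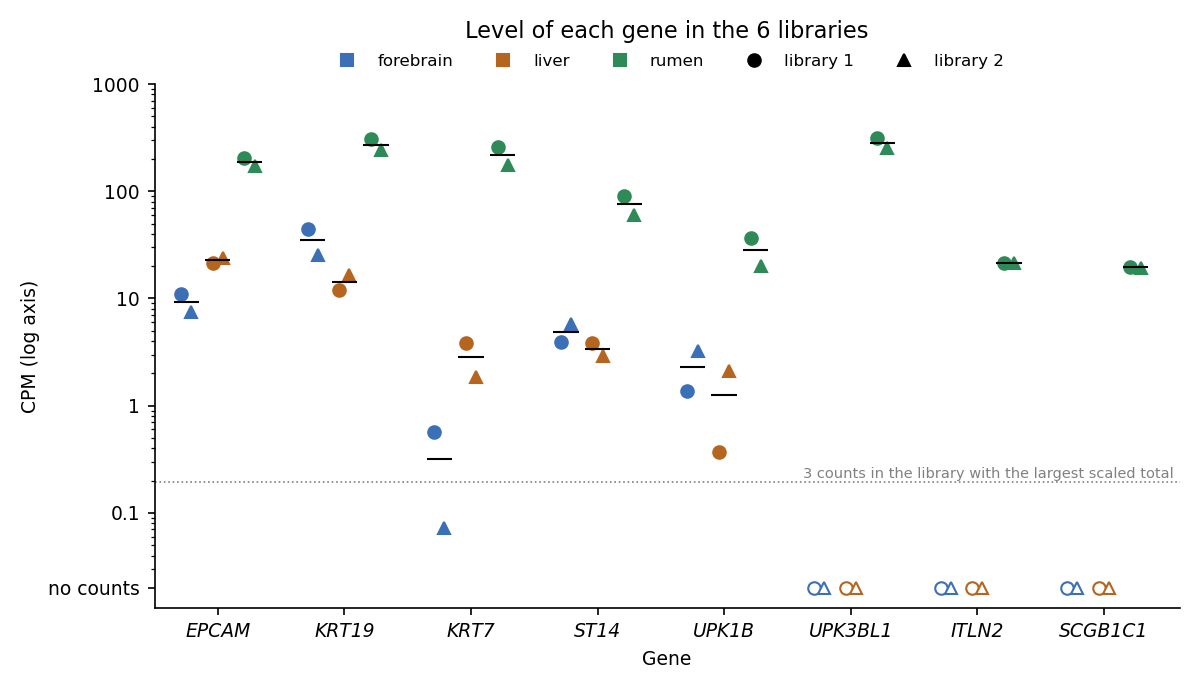
CPM on a log axis for each gene in each library, with circles for library 1, triangles for library 2, bars for the tissue mean (n = 2) and open symbols for libraries without counts; the dotted line is the level of 3 counts in the library with the largest scaled total. Both rumen libraries lie above the others for every gene, and 3 genes have no counts outside the rumen.

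EPCAM encodes the epithelial cell adhesion molecule, which sits on the sides of epithelial cells. It had 134 and 104 counts in forebrain and 288 and 371 in liver, with 2680 and 2190 in rumen. The levels were 10.9 and 7.51 CPM, 21.4 and 23.8 CPM, and 205 and 171 CPM. The tissues did not overlap, with rumen highest, then liver, then forebrain. Forebrain averaged 9.20 ± 2.40 CPM, liver 22.6 ± 1.69 and rumen 188 ± 24.2 (SD, n = 2). On the mean log2 CPM scale the rumen level was 20.4-fold that of forebrain and 8.24-fold that of liver, a log2 difference of 4.35 and 3.04. Liver exceeded forebrain by 1.31 on the same scale.

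KRT19 encodes keratin 19, a small type I keratin of simple and glandular epithelia. It had 548 and 356 counts in forebrain and 160 and 256 in liver, with 3987 and 3083 in rumen, or 44.6 and 25.7, 11.9 and 16.4, and 305 and 241 CPM. Here the order of the lower tissues was the reverse of that for EPCAM, with both forebrain libraries above both liver libraries. Forebrain averaged 35.1 ± 13.3 CPM, liver 14.2 ± 3.20 and rumen 273 ± 45.6. The rumen level was 7.98-fold that of forebrain and 19.2-fold that of liver. The log2 difference of liver minus forebrain was -1.26.

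KRT7 encodes keratin 7, a type II keratin of ducts and glands. It had 7 and 1 counts in forebrain and 52 and 29 in liver, with 3349 and 2252 in rumen, or 0.569 and 0.0722, 3.87 and 1.86, and 256 and 176 CPM. The tissues did not overlap, and the single count of the second forebrain library sets the lower end. Means were 0.321 ± 0.351, 2.87 ± 1.42 and 216 ± 56.9 CPM. The rumen minus forebrain difference was 9.06 and the rumen minus liver difference 6.22 on the log2 scale, or 534-fold and 74.7-fold. With so few forebrain counts the first value depends on the library: it ranged from 8.24 to 9.95 over all settings tried, and the highest value came without the first forebrain library. Among the 5 genes detected in every library, KRT7 had the largest rumen difference from both tissues under the main scaling.

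ST14 encodes matriptase, a serine protease anchored in the membrane of epithelial cells. It had 48 and 80 counts in forebrain and 52 and 45 in liver, with 1183 and 774 in rumen, or 3.90 and 5.77, 3.87 and 2.89, and 90.5 and 60.4 CPM. The nearest forebrain and liver libraries, at 3.90 and 3.87 CPM, were closer than the libraries within either pair, so the order of these tissues is not beyond their spread. Forebrain averaged 4.84 ± 1.32 CPM, liver 3.38 ± 0.694 and rumen 75.5 ± 21.3. The rumen level was 15.1-fold that of forebrain and 21.2-fold that of liver.

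UPK1B encodes uroplakin 1b, a tetraspanin that pairs with a uroplakin 3 protein in the bladder lining. It had 17 and 45 counts in forebrain and 5 and 33 in liver, with 483 and 255 in rumen, or 1.38 and 3.25, 0.372 and 2.12, and 37.0 and 19.9 CPM. Forebrain and liver overlapped. Means were 2.31 ± 1.32, 1.25 ± 1.24 and 28.4 ± 12.1 CPM, so the SD in liver was about as large as the mean. The rumen level was 12.0-fold that of forebrain and 25.1-fold that of liver. The latter value depended on the liver library: the log2 difference of rumen minus liver was 4.65 with both, 3.59 without the first liver library and 5.70 without the second.

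The second liver library also held counts of stratified epithelial keratins that the first did not. KRT15 had 0 and 68 counts in the liver libraries, KRT4 0 and 66, and KRT5 0 and 13, against 80349 counts or more of KRT15 in each rumen library. UPK1B, with 5 and 33 liver counts, KRT19, with 160 and 256, and EPCAM, with 288 and 371, differed in the same direction, while KRT7, with 52 and 29, and ST14, with 52 and 45, did not. The part of these counts in the liver values of the 8 genes was not tested. As log2 CPM, the first minus the second liver library was -2.12 for UPK1B, -0.46 for KRT19 and -0.15 for EPCAM. The values of KRT19 and EPCAM lie within the SD of 0.897 of the liver pair. Of 13 simple epithelial keratin and junction genes with over 3 liver counts, 5 were higher in the first library, as were 5493 of 10865 tested genes. CDH1, with 169 and 27 counts, and AP1M2, with 92 and 36, were among the 5.

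UPK3BL1 encodes a protein like uroplakin 3b, an integral membrane protein with a single membrane span. It had 4108 and 3239 counts in rumen, or 314 and 253 CPM, and none in the other 4 libraries. Its rumen mean was 284 ± 43.5 CPM (SD, n = 2). The pooled rumen level was at least 2475-fold higher than forebrain and at least 2744-fold higher than liver. UPK3BL1 and UPK1B thus shared a name and a high rumen level, but UPK1B had 5 to 45 counts in each of the libraries where UPK3BL1 had 0.

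ITLN2 encodes an intelectin, a lectin of mucosal secretions. It had 277 counts in each rumen library, or 21.2 and 21.6 CPM, and none elsewhere. SCGB1C1 encodes a secretoglobin. It had 258 and 246 counts in rumen, or 19.7 and 19.2 CPM, and none elsewhere. Rumen means were 21.4 ± 0.297 CPM for ITLN2 and 19.5 ± 0.386 CPM for SCGB1C1, and the rumen libraries were nearly level for both. ITLN2 was at least 187-fold higher in rumen than in forebrain and at least 207-fold higher than in liver. SCGB1C1 was at least 170-fold higher than in forebrain and at least 188-fold higher than in liver. All 6 bounds of these genes are set by the depth of the empty libraries and are not estimates of size.

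**Figure D2:**
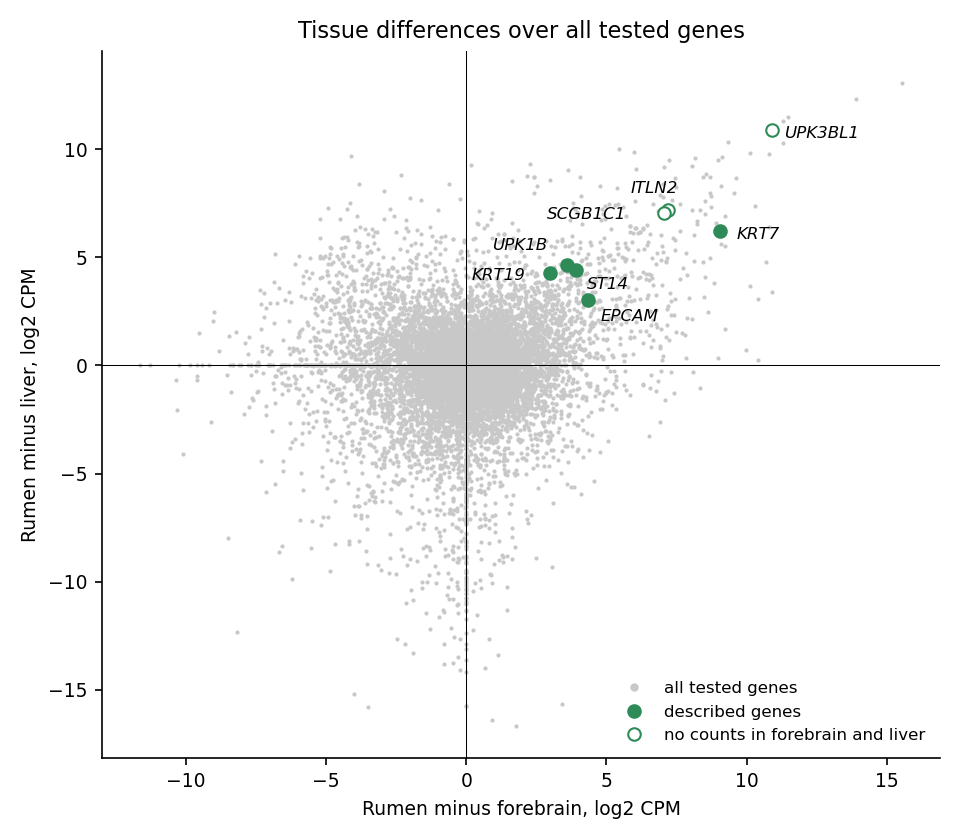
Difference of mean log2 CPM (prior count 2) for rumen minus forebrain on the x axis and rumen minus liver on the y axis, for all 11478 tested genes in grey and the 8 described genes in green, open where forebrain and liver had no counts. All 8 lie in the upper right, the lowest at 3.0 for KRT19 on the x axis; for the open circles the position depends on the prior count.

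The 2 rumen libraries differed from each other more for some of these genes than for others. The log2 ratio of the first to the second library was 0.89 for UPK1B, 0.58 for ST14, 0.54 for KRT7, 0.34 for KRT19, 0.31 for UPK3BL1 and 0.26 for EPCAM. It was 0.04 for SCGB1C1 and -0.03 for ITLN2. So 7 of the 8 were higher in the first rumen library, with a median of 0.33. Of 10900 tested genes 5475 were higher there, with a median of 0.00. The stratified squamous genes had a median of 0.21, with 7 of 10 higher in the first library. The epithelial transcription and splicing factors had a median of -0.08, with 1 of 10 higher, and the uroplakins and urothelial factors -0.35, with 2 of 5 higher. The smooth muscle and foregut mesenchyme genes had a median of -0.10, with 1 of 5 higher. With 1 pair of libraries this is a description, and the share of epithelium in each piece of rumen was not tested.

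**Figure D3:**
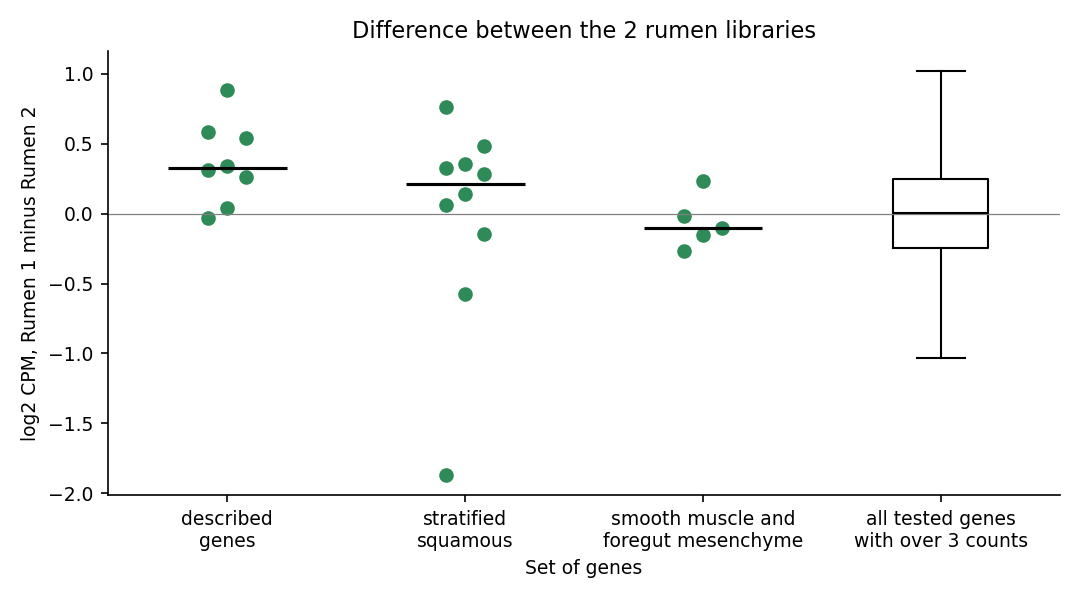
Difference of log2 CPM between the first and second rumen library on the y axis, 1 point per gene in each set on the x axis, with bars for the median; the box with its median line spans the interquartile range of all tested genes with more than 3 rumen counts, and its whiskers run from the 5th to the 95th percentile. The described genes lie between -0.03 and 0.89.

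Other genes of the same pathways were then counted in lists that leave out the 8 genes. The lists were chosen with earlier results of these data known, so their shares are a description and not independent support. Counts give genes that passed edgeR's quasi-likelihood test at an adjusted p under 0.05. The 6 pathway lists named 73 genes, of which 54 were in the count table and 45 were tested. Against forebrain, 28 of the 45 (62.2%) were higher in rumen and 6 (13.3%) lower, while 19.5% and 19.9% of all tested genes were. Against liver, 19 (42.2%) were higher and 5 (11.1%) lower, while 20.1% and 20.3% of all tested genes were. In liver against forebrain, 19 (42.2%) were higher and 10 (22.2%) lower, while 29.4% and 25.9% of all tested genes were. Median log2 differences of the 45 were 3.72, 1.86 and 1.45 in these comparisons, where all tested genes had medians of -0.02, -0.01 and 0.07. Scaling on total counts alone moved these all-gene medians by -0.15, 0.29 and -0.46.

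**Figure D4:**
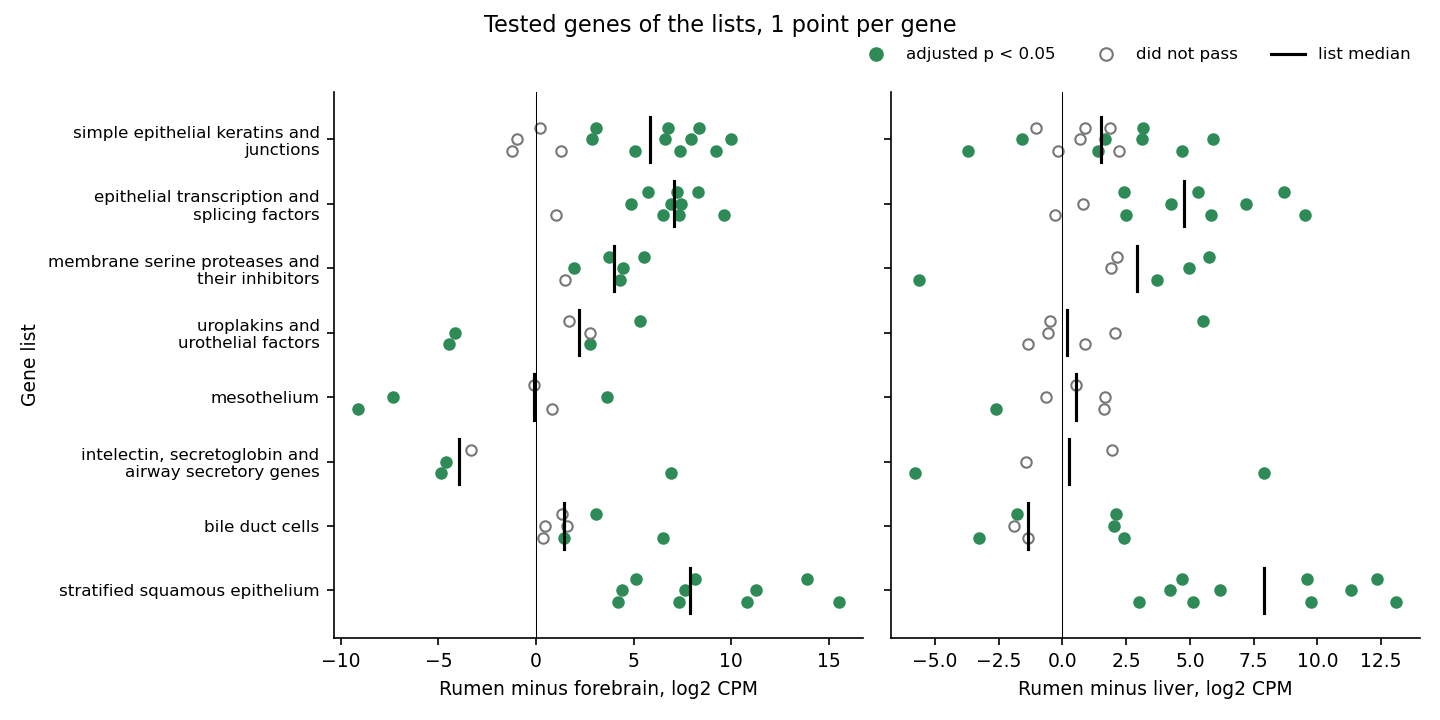
Difference of mean log2 CPM for each tested gene of 8 gene lists, rumen minus forebrain on the left and rumen minus liver on the right, filled where the adjusted p was under 0.05 in edgeR's test, with bars for list medians. All 10 stratified squamous genes lie to the right in both panels. The uroplakin, mesothelium and airway lists spread to both sides of 0, and other lists also hold genes below 0, such as KRT18 and HPN against liver.

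Among simple epithelial keratins and junction genes, 10 of 14 tested were higher in rumen than in forebrain and none lower. Against liver 6 were higher and 2 lower, and in liver against forebrain 8 were higher and 1 lower. Shares of all tested genes were 19.5% and 19.9%, 20.1% and 20.3%, and 29.4% and 25.9% in the same order. KRT8, the usual type II partner in simple epithelia, averaged 0.144 ± 0.204 CPM in the forebrain libraries, 158 ± 11 in those of liver and 258 ± 14.2 in those of rumen. It was higher than forebrain in rumen (edgeR, adjusted p = 0.000261) and liver, and its 1.63-fold difference of rumen from liver had an adjusted p of 0.18 in edgeR. With DESeq2 the difference of KRT8 from liver passed (adjusted p = 0.0196). KRT18, its type I partner, went the other way against liver: 45.8 ± 1.62 CPM in rumen, 148 ± 82.1 in liver, 3.23-fold lower in rumen (edgeR, adjusted p = 0.0304). That call was lost with scaling on total counts and without either rumen library.

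CLDN7, a claudin that binds EPCAM, had 0 and 2 counts in forebrain, 38.9 ± 2.69 CPM in liver and 126 ± 26.8 in rumen. It was 3.25-fold higher in rumen than in liver (edgeR, adjusted p = 0.0102), and without the first rumen library the adjusted p was 0.104. CLDN4, another tight junction claudin, had no count in forebrain and was at 96.9 ± 9.89 CPM in liver and 48.6 ± 15.2 in rumen. It was at least 425-fold higher in rumen than in forebrain (edgeR, adjusted p = 0.000345). RAB25, a small GTPase of epithelial vesicle recycling, was 44.9-fold higher in rumen than in liver (edgeR, adjusted p = 0.00689, and 0.0503 without the first rumen library). AP1M2, a subunit of the epithelial clathrin adaptor, was 7.98-fold higher there (edgeR, adjusted p = 0.0151), a call lost without either rumen library. CLDN6, a claudin of early epithelia, had no rumen count and was lower than in liver (edgeR, adjusted p = 0.0382), but that call was lost without any 1 forebrain or rumen library. KRT20, a keratin of gut and bladder surface cells, had 14 and 17 rumen counts and at most 1 elsewhere. The list's count against liver depended on single libraries: 1 higher without the first rumen library, 3 without the second and 9 without the first liver library.

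Epithelial transcription and splicing factors gave 9 of 10 higher in rumen than in forebrain and none lower, and 8 higher and none lower against liver. All tested genes gave 19.5% and 19.9%, and 20.1% and 20.3%. KLF5, a factor of proliferating epithelial cells, had a forebrain level of 6.97 ± 1.07 CPM, a liver level of 1.35 ± 0.542 and a rumen level of 1065 ± 5.59. It was 153-fold higher than in forebrain and 776-fold higher than in liver (edgeR, adjusted p = 0.000251 and 0.000222). ESRP1, which sets epithelial splicing, had 1 forebrain count and 6 liver counts in all, and 145 ± 12.6 CPM in rumen, 669-fold higher than liver (edgeR, adjusted p = 0.000222). ESRP2, its relative, was at 110 ± 80.8 CPM in liver and 76.1 ± 2.91 in rumen, higher in rumen than in forebrain (edgeR, adjusted p = 0.000733) and with an adjusted p of 0.435 against liver. OVOL2, a repressor of mesenchymal genes, had no forebrain count and was 221-fold higher in rumen than in liver (edgeR, adjusted p = 0.00074). ELF5, an epithelial ETS factor, was 81.8-fold higher in rumen than in liver (edgeR, adjusted p = 0.00131). ELF3 and EHF, of the same family, were 4.37-fold and 14.9-fold higher (edgeR, adjusted p = 0.0363 and 0.0431), and both calls were lost without any 1 forebrain or rumen library. The count of 8 against liver fell to 5 without any 1 forebrain or rumen library.

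The genes that act with matriptase were counted as membrane serine proteases and their inhibitors. Of 6 tested, 5 were higher in rumen than in forebrain, and 3 were higher and 1 lower than in liver. Shares of all tested genes were 19.5% higher than in forebrain, and 20.1% higher and 20.3% lower than in liver. SPINT1 and SPINT2 encode the Kunitz inhibitors of matriptase. SPINT1 was at 2.89 ± 2.35 CPM for forebrain, 4.30 ± 1.72 for liver and 56.9 ± 12.5 for rumen, where it was 19.8-fold higher than forebrain and 13.3-fold higher than liver (edgeR, adjusted p = 0.0041 and 0.00572). SPINT2 had 257 ± 1.80, 18.7 ± 6.39 and 980 ± 136 CPM, and was 3.81-fold and 52.4-fold higher in rumen (edgeR, adjusted p = 0.00347 and 0.000227). PRSS8 encodes prostasin, a protease activated together with matriptase, and was 19.9-fold and 31.2-fold higher in rumen, at 33.5 ± 4.23 CPM (edgeR, adjusted p = 0.00406 and 0.00254). All 3 were thus higher in rumen, where ST14 was also high, than in both other tissues. HPN, hepsin, is a protease of hepatocytes: it was at 272 ± 176 CPM in liver and 4.79 ± 0.589 in rumen, 56.8-fold lower in rumen (edgeR, adjusted p = 0.000665). TMPRSS4, another membrane protease, had 2 and 170 counts in liver, with 79 and 94 in rumen. It was higher in rumen than in forebrain, where it had none (edgeR, adjusted p = 0.0452), and had an adjusted p of 0.907 against liver. That call was lost without any 1 forebrain or rumen library.

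Uroplakins and urothelial factors went in both directions. UPK2 and PPARG had both rumen libraries above all 4 others, as UPK1B and UPK3BL1 had and as 16.8% of all tested genes did. UPK1A, UPK3A, UPK3B, GATA3 and FOXA1 did not. Of 6 tested, 2 were higher and 2 lower in rumen than in forebrain, and 1 was higher and none lower than in liver. With 6 genes, these counts cannot be told from the shares of all tested genes, 19.5% and 19.9%, and 20.1% and 20.3%. UPK2, a small uroplakin that pairs with UPK1A, had a forebrain level of 1.97 ± 0.375 CPM, no liver count and a rumen level of 6.75 ± 2.26 CPM. It was at least 65.4-fold higher in rumen than in liver (edgeR, adjusted p = 0.00281), and its adjusted p against forebrain was 0.0943. UPK3A, the partner of UPK1B in bladder plaques, had 20 and 53 counts in forebrain, 2 and 0 in liver and none in rumen. It was lower in rumen than in forebrain (edgeR, adjusted p = 0.0212), a call lost with library number as a replicate block and without any 1 forebrain or rumen library. UPK1A had 2 and 0, 2 and 21, and 5 and 9 counts in forebrain, liver and rumen, too few to test.

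UPK3B, the gene that gave UPK3BL1 its name, had 9 and 10 counts in forebrain and 12 and 155 in liver, with 56 and 104 in rumen. In the fit of all 6 libraries it passed in no comparison, with an adjusted p of 0.0771 against forebrain (edgeR). It passed there with DESeq2 (adjusted p = 0.0262) and without the first or the second liver library (edgeR, adjusted p = 0.00108 and 0.00377). PPARG, a nuclear receptor of urothelial and fat cells, was 55.0-fold higher in rumen than in forebrain (edgeR, adjusted p = 0.00336). Its 3.42-fold difference of rumen from liver had an adjusted p of 0.0829 in edgeR. That difference passed with DESeq2 (adjusted p = 0.0493) and with library number as a replicate block (edgeR, adjusted p = 0.0451). FOXA1, a forkhead factor of endodermal organs, was 13.9-fold higher in rumen than in forebrain (edgeR, adjusted p = 0.0322). That call was lost without either forebrain library or the first rumen library. GATA3, a zinc finger factor of urothelium, was 19.8-fold lower in rumen than in forebrain (edgeR, adjusted p = 0.0205), a call lost without the same libraries. The count of 2 higher against forebrain was 1 without either forebrain library or the first rumen library, and the count of 2 lower was then 0. With either liver library left out, 4 were higher.

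Of 5 tested mesothelial genes, 1 was higher and 2 lower in rumen than in forebrain, and none was higher and 1 lower than in liver. With 5 genes, these counts cannot be told from the shares of all tested genes, 19.5% and 19.9% against forebrain and 20.1% and 20.3% against liver. MSLN, mesothelin, had 0 and 1 counts in forebrain and 21 and 112 in liver, with 31 and 24 in rumen. It passed against forebrain (edgeR, adjusted p = 0.0206), a call lost without any 1 forebrain or rumen library, and had an adjusted p of 0.409 against liver. PDPN, podoplanin, had no rumen count. CALB2, calretinin, and GPM6A, a membrane glycoprotein, are also neuronal genes and were 190-fold and 593-fold lower in rumen than in forebrain (edgeR, adjusted p = 0.000433 and 0.00023). Summed over the list, forebrain had 1467 and 1227 CPM, liver 19.3 and 25.1, and rumen 12.1 and 11.6. The other 6 listed mesothelial genes were not analysed here.

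Of the intelectin, secretoglobin and airway secretory list, 9 of 13 genes were in the table and only 4 were tested. In rumen, 1 was higher and 2 lower than in forebrain, and 1 higher and 1 lower than in liver. With 4 genes, these counts cannot be told from the shares of all tested genes, 19.5% and 19.9%, and 20.1% and 20.3%. The gene that was higher in both comparisons was AGR2, a protein disulfide isomerase of mucus-secreting cells, at 34.9 ± 2.40 CPM in rumen. It was 217-fold higher than in forebrain and at least 337-fold higher than in liver (edgeR, adjusted p = 0.000801 and 0.000527). SCGB1A1, the club cell secretoglobin, BPIFA1 and BPIFB1, secreted airway proteins, had no counts in any library. SCGB3A2 and SCGB2A2, other secretoglobins, had at most 4 counts in any library, so SCGB1C1 was the one tested member of its family. NKX2-1, a lung and forebrain factor, and FOXJ1, the factor of motile cilia, were lower in rumen than in forebrain (edgeR, adjusted p = 0.0353 and 0.039), and LTF, lactoferrin, was 48.4-fold lower than in liver (edgeR, adjusted p = 0.0131). The NKX2-1 call was lost without the second forebrain library, which held 951 counts against 48 in the first, or without either rumen library. The FOXJ1 call was lost without any 1 forebrain or rumen library.

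Markers of other cell types that could carry these genes were read in the same way. All tested genes gave 19.5% higher in rumen than in forebrain and 20.1% higher than in liver. Stratified squamous genes gave 10 of 10 tested higher in rumen against both tissues, and 7 to 10 with a library left out. KRT5 was at 301 ± 70.5 CPM in rumen, 264-fold higher than forebrain and 672-fold higher than liver (edgeR, adjusted p = 0.00188 and 0.00127). IVL, involucrin of the cornified envelope, had no count outside the rumen and was at 375 ± 65.2 CPM there. DSG3, a desmosomal cadherin, was 85.0-fold higher than liver (edgeR, adjusted p = 0.0035). The 11 listed genes in the table gave sums of 7.81 and 6.86 CPM for forebrain, 85.7 and 183 for liver, and 14604 and 11932 for rumen. KRT15, KRT14, KRT6A, TP63, DSG3 and IVL were at 0 in forebrain, and KRT6A, TP63, DSC3 and IVL in liver. The part of stratified epithelium in the rumen levels of the 8 genes was not tested.

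Bile ducts of the liver are known to carry EPCAM, KRT7 and KRT19. Of 7 tested bile duct genes, 4 were higher and 3 lower in liver than in forebrain, and 3 were higher and 2 lower in rumen than in liver. With 7 genes, these counts cannot be told from the shares of all tested genes, 29.4% and 25.9%, and 20.1% and 20.3%. TM4SF4, a tetraspan protein, had no forebrain count and was at 132 ± 37.2 CPM in liver and 13.4 ± 0.350 in rumen. ANXA4, annexin A4, was 30.8-fold higher in liver than in forebrain (edgeR, adjusted p = 0.000272). CFTR, a chloride channel of ducts, was higher in liver than in forebrain (edgeR, adjusted p = 0.0423), a call lost with total counts (adjusted p = 0.0557), with library number as a replicate block (adjusted p = 0.0760) and without either forebrain library or the first liver library. SOX4, SPP1 and PKD2 were higher in rumen than in liver, and they were the genes that were lower in liver than in forebrain. Genes of this list are also expressed outside ducts. Summed CPM was 92.6 and 90.6 for forebrain, 333 and 439 for liver, and 215 and 230.0 for rumen. Among the 8 genes, EPCAM and KRT7 had liver above forebrain without overlap, and KRT19 and ST14 the reverse. For ST14 the nearest libraries, at 3.90 CPM in forebrain and 3.87 in liver, were almost level. The part of duct cells in the liver values was not tested.

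Choroid plexus and ependyma are the epithelia of the brain, and 5 of their genes were tested. In liver against forebrain 2 were higher and 3 lower, and rumen gave 1 higher and 2 lower against forebrain, and 2 higher and 1 lower against liver. Shares of all tested genes were 29.4% and 25.9%, 19.5% and 19.9%, and 20.1% and 20.3% in the same order. With 5 genes, the counts cannot be told from these shares. KL had no count in any library, and KCNJ13 and FOLR1 had at most 1 and 6 counts in a forebrain library. AQP1 had 1 and 0 counts in forebrain. CCDC153 had 118 and 217 counts in forebrain and DYNLRB2 187 and 287. Both were lower in liver than in forebrain (edgeR, adjusted p = 0.00741 and 0.00258). The CCDC153 call was lost without the second forebrain library. TTR, which hepatocytes also make, had 7 and 39 counts in forebrain. OTX2, a factor of both choroid plexus and forebrain regions, was at 142 ± 56.9 CPM in forebrain and had no count elsewhere. Their part in the forebrain counts of KRT19, EPCAM and ST14 was not tested.

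The table held 43 keratin symbols, of which 20 were tested, 18 beside these 2. In rumen against forebrain 9 of the 18 were higher, KRT8, KRT4, KRT5, KRT6A, KRT15, KRT17, KRT20, KRT24 and KRT78, and 3 were lower, KRT81, KRT86 and KRT222, where 19.5% and 19.9% of all tested genes were. Against liver 11 were higher and 2 lower, KRT18 and KRT79, where 20.1% and 20.3% of all were. In liver against forebrain 3 were higher and 6 lower, where 29.4% and 25.9% of all were. The calls of KRT20 and KRT6A against forebrain were lost without any 1 forebrain or rumen library. Keratin genes are alike in sequence and lie in clusters, so reads can be split between them by the counting, and single keratin values are uncertain to that extent. The same holds for the uroplakin 3 genes.

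For each of the 8 genes the tested genes with the most similar profile were found. Likeness was the root mean square difference between mean-centred log2 CPM (prior count 2) over the 6 libraries, and it is a description across libraries that share tissue and depth. ITLN2 was nearest to SCGB1C1, at 0.0670, then to CERS3, a ceramide synthase of skin barrier lipids, at 0.0950, and ZNF750, an epidermal differentiation factor, at 0.105. SCGB1C1 was nearest to CERS3, at 0.0413, then to ITLN2, at 0.0670, and ZNF750, at 0.105. UPK3BL1 was nearest to IVL, at 0.189, then to PITX1, a hindlimb and foregut homeobox factor, at 0.296, and GSDMC, a gasdermin, at 0.484. For these 3 genes the likeness rests on absence of counts in the same 4 libraries and on the rumen level.

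EPCAM was nearest to TNXB, a matrix protein, at 0.209, DSC2, a desmosomal cadherin, at 0.226, and ADAMDEC1 at 0.253. KRT19 was nearest to SLC6A14, an amino acid transporter, at 0.243, COL8A1, a collagen, at 0.245, and MATN2, a matrix protein, at 0.275. ST14 was nearest to FBLN1, a matrix protein, at 0.248, EMP3, a membrane protein, at 0.291, and S100A10 at 0.307. UPK1B was nearest to SFRP2, a secreted WNT modulator, at 0.449, EFEMP1, a matrix protein, at 0.601, and F3, tissue factor, at 0.621. KRT7 was nearest to DES, the muscle intermediate filament, at 0.638, CEACAM19 at 0.639 and SERPINB4 at 0.785. With a prior count of 0.5 the nearest gene became DSC2 for EPCAM, COL8A1 for KRT19 and CEACAM19 for KRT7. CEACAM19 was also the nearest to KRT7 under DESeq2's size factors and under total counts. Among the 8, the least alike pair was KRT19 and UPK3BL1, at 3.47.

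Neighbouring genes were read from the order of a RefSeq gene table (assembly ARS-UCD2.0), which was used only for names and order. It held 6 of the 8 symbols. UPK3BL1 was a synonym of the entry UPK3BL2, and ITLN2 was a synonym of 2 entries, LOC618581 and LOC508016, so ITLN2 was not placed. The nearest 3 genes in the count table on either side of the other 7 made 42 neighbours, of which 35 were tested. In rumen, 10 were higher and 8 lower than in forebrain, against 19.5% and 19.9% of all tested genes, and 11 were higher and 4 lower than in liver, against 20.1% and 20.3%. Both comparisons were passed upward by 5 of the 35, against 7.01% of all tested genes: KRT15 and KRT17 beside KRT19, TMEM45B beside ST14, DTX2 beside UPK3BL1 and ODF3 beside SCGB1C1.

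**Figure D5:**
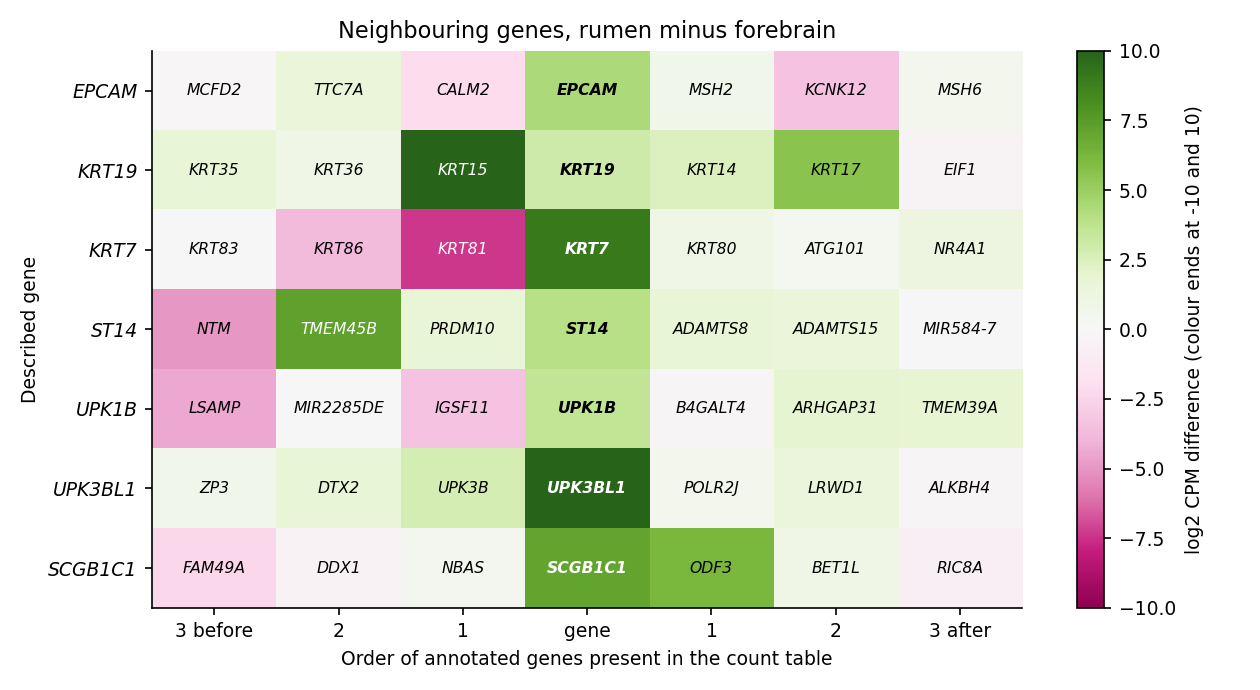
Colour gives the difference of mean log2 CPM, rumen minus forebrain, for 7 of the genes (middle column, bold) and the 3 genes of the count table before and after each in annotation order; values past the ends of the colour scale take its end colour. Each row holds values above and below 0, with KRT81 and KRT86 low beside KRT7. In the KRT19 and UPK3BL1 rows the only values below 0 are those of EIF1, at -0.28, and ALKBH4, at -0.17, and neither passed.

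KRT15 and KRT19 lie next to each other in the type I keratin cluster, and KRT15 had 102720 and 80349 rumen counts and 0 in both forebrain libraries, where KRT19 had 548 and 356. KRT14, on the other side of KRT19, had 9 and 8 rumen counts. KRT17, next after KRT14, had 284 and 331 rumen counts and 4 and 5 in forebrain. KRT81 and KRT86, hair keratins next to KRT7, had 413 and 257 and 34 and 16 counts in forebrain and none in liver or rumen. ODF3, which encodes a protein of sperm tails, had no count in forebrain or liver and 120 and 158 in rumen, the same presence and absence as SCGB1C1. The DTX2 calls were lost without either rumen library, that against forebrain also without the first forebrain library, and the TMEM45B call against liver without the first rumen library (edgeR, adjusted p = 0.0756).

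Overlap with other genes limits 2 of the values. SCGB1C1 overlaps NBAS in that annotation. NBAS, a vesicle transport gene, had 263 to 653 counts in every library, while SCGB1C1 had 0 in 4 of them. ST14 overlaps 2 other entries, TRNAE-UUC and LOC132344197. Whether the counting used strand is not given in the sources used here, and reads from overlapping genes cannot then be assigned with certainty.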

How the data were processed

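Poly(A) RNA of 6 libraries, 2 each of forebrain, liver and rumen, was sequenced. Per the submitters' processing notes, the tools were HISAT2 2.0.5 (an aligner), featureCounts 1.5.0-p3 (a read counter) and edgeR 3.18.1. Build, annotation and use of strand: not given in the sources used here. The authors deposited raw counts per gene symbol, and all columns were matched by name (0 not used). Of 14179 symbols, 11478 passed filterByExpr (minimum count 10, minimum total 15). Here edgeR 4.0.16 in R 4.3.3 fitted all 6 libraries by quasi-likelihood with TMM scaling, 1 mean per tissue, no block, 3 residual degrees of freedom, and Benjamini-Hochberg adjustment over all tested genes with a threshold of 0.05. Levels are CPM on TMM-scaled totals. Differences of the 8 genes are those of mean log2 CPM with a prior count of 2, and folds of tested genes are edgeR's. Against a tissue without counts, folds are the pooled level over the floor of 3 counts in both libraries, and with 1 to 3 counts no fold is given. The fit was tested on simulated data.

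The 8 genes and the gene lists were chosen with earlier results of these data known. The rule named all 8, the first 2 genes of each list in the table, up to 3 passing genes of a list with the largest log2 fold change in each comparison, the 3 nearest profiles and the neighbours that passed in 1 direction or had no counts; the remaining names were chosen after their values were seen. Alternatives were size factors by DESeq2's method (RLE), total counts, no filter, DESeq2 1.42.0, the library number as a block, a prior count of 0.5 and leaving out each library. Floors cover counting error only. No sequences were used. Results on some genes of the lists are not reported here.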

Additional observations from a re-analysis of the deposited data

How the results depend on the processing

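The differences of EPCAM, KRT19, KRT7, ST14 and UPK1B kept their direction in all 180 values over 12 settings, and 14 of these moved by more than the spread between libraries. The largest ranges were those of UPK1B, from -2.13 to -0.01 for liver minus forebrain and from 3.59 to 5.70 for rumen minus liver, both set by which liver library was left out. For KRT7 minus forebrain they were 8.24 to 9.95 in rumen and 1.99 to 3.70 in liver. The lower bounds of UPK3BL1, ITLN2 and SCGB1C1 fell to as little as 1188-fold, 89.6-fold and 81.5-fold without a forebrain library, because the floor of 3 counts then rests on 1 library.

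Counts of passing genes moved with the libraries used, where a lone library is assumed to vary like the other tissues. Leaving out each library in turn, all-gene counts ranged from 931 to 3482 higher and 947 to 3659 lower for rumen minus forebrain. They ranged from 1231 to 3391 and 1013 to 3479 for rumen minus liver, and from 1877 to 4127 and 1764 to 3810 for liver minus forebrain. Pathway counts ranged from 22 to 32 higher and 2 to 7 lower, from 11 to 24 and 3 to 8, and from 11 to 21 and 6 to 11 in the same order.

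With total counts, the share of passing genes that were higher went from 49.8% to 62.5% for rumen minus liver (2980 higher, 1785 lower) and from 53.2% to 39.3% for liver minus forebrain (2559 higher, 3946 lower). The labels do not say that equal library numbers share a fetus, and deviations of equally numbered libraries correlated by 0.0754, -0.0585 and -0.00177 between tissues. A replicate block gave 1990 higher and 1971 lower for rumen minus forebrain, 2017 and 2004 for rumen minus liver and 3055 and 2712 for liver minus forebrain, and pathway counts of 26 and 4, 19 and 4, and 17 and 8. Among the listed genes, the block ended the calls of FOXA1, FOXJ1, KRT20, SERPINA1, TP63 and UPK3A for rumen minus forebrain, of CLDN6, KRT20 and OVOL1 for rumen minus liver, and of AGR2, CFTR, DSG3, EHF, OVOL2, PKD2 and UPK3A for liver minus forebrain. Depth limits the forebrain level of KRT7, with 1 count in 1 library.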

Other observations

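Keratins form filaments as pairs of a type I and a type II protein, and the forebrain counts of the pairs were uneven. The type I keratins KRT18 and KRT19 had 316 and 186 counts and 548 and 356 counts in the forebrain libraries. The type II keratins of simple epithelia had few: KRT8 had 0 and 4 counts and KRT7 had 7 and 1. Other type II keratins had more there, with 413 and 257 counts of KRT81, 163 and 145 of KRT80 and 34 and 16 of KRT86. Junction genes of epithelia were mixed in the same libraries. CDH1 (E-cadherin) had 1 and 0 counts, CLDN4 none and CLDN7 0 and 2, while CLDN3 had 130 and 139 and CGN 127 and 111. Of genes that are not junction genes, MAL2 had 1139 and 1231 and SPINT2 had 3147 and 3581. EPCAM had 134 and 104. Pairs were uneven in rumen as well. KRT5, the type II keratin of basal cells, had 4585 and 3218 rumen counts, and its usual type I partner KRT14 had 9 and 8. KRT15, another type I keratin, had 102720 and 80349, and KRT4, another type II keratin, had 60268 and 48537. KRT8 had 3499 and 3174 rumen counts, and KRT18 had 583 and 601. These genes were chosen after their values were seen.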
